A study of Mus musculus with 2 samples.

Results

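The Krüppel-like factor and specificity protein genes form one family of transcription factors, and 10 of them were examined here: Klf2, Klf3, Klf6, Klf7, Klf10, Klf11, Klf13, Sp1, Sp3 and Sp4. They were taken by name, by a rule that uses no measured value but was proposed with earlier results of these data known, and are 10 of the 21911 protein-coding genes in GENCODE release M21. At each gene the summits of EP300 peaks were collected in the gene body and within 100 kb on either side of the gene's start, on the mouse build mm10. EP300 is a histone acetyltransferase that is recruited to active promoters and enhancers, and it was mapped by chromatin immunoprecipitation and sequencing. The tissue was stomach taken on the day of birth (postnatal, 0 days) from mice of the strain B6NCrl, with sex not collected, and the labels name no genetic change and no treatment. There are 2 libraries in 1 group, numbered as biological replicates 1 and 2. Since their labels give a single biosample and donor, the spread between the libraries may be technical. With 1 group there is no contrast between conditions, and counts at the 10 genes stand beside the same counts over all protein-coding genes, without a test.

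Members of this family carry zinc fingers at the end of the protein and bind GC-rich elements, the GC box and the CACCC box. Sp1 and Sp3 are found in nearly all cells and act at many promoters without a TATA box, while Sp4 is best known from neurons. Among the others, Klf2 is known for its part in quiescent endothelium and lymphocytes, Klf6 as a gene that responds early to growth factors and injury, and Klf7 from neurons and fat cells. Klf3 recruits the co-repressor CtBP, and Klf10, Klf11 and Klf13 recruit the co-repressor Sin3, with Klf10 and Klf11 also known as early targets of TGF-beta.

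Of the 10 genes, 8 had an EP300 summit of the optimal list in their region, against 49.9% of all protein-coding genes. The optimal list and a separate conservative list are the deposited sets thresholded by IDR, the irreproducible discovery rate, which asks whether peaks rank alike between replicates. The 8 genes held 37 summits in 26 separate runs of overlapping peaks, and no summit was shared between 2 of the 10. Klf6 held 11, Sp3 7, Klf11 5, Klf3 4, Klf2 3, Klf13 3, Klf10 2 and Sp1 2, and Klf7 and Sp4 had none. Over all protein-coding genes the median was 0 and the mean 1.41 summits, and 0.739% of genes reached the count of Klf6. Sp3's count was reached by 3.55% of genes and Klf11's by 8.27%. These shares count each summit, also where peaks overlap. In separate runs of overlapping peaks Klf6 held 6, Sp3 5 and Klf11 3, and the share of genes reaching those numbers of runs was not computed.

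A summit at the gene's own promoter, that is within 1 kb of one of its coding transcript starts, was found for 6 of the 10 genes, against 11.1% of all protein-coding genes. These were Klf3, Klf6, Klf10, Klf11, Sp1 and Sp3. A distal summit, over 10 kb from any protein-coding start, was found for 6 of the 10, against 17.5% of all. These were Klf3, Klf6, Klf10, Klf11, Klf13 and Sp3. Of the 37 summits, 8 lay at the member's own promoter, 1 at the promoter of another gene, 8 between 1 and 10 kb from a start, and 20 were distal. Distal summits thus made up 54.1% of those at the 10 genes and 44.7% of the 7733 optimal summits on named chromosomes, while promoter summits made up 24.3% and 38.2%. The distal count depends on how summits are counted, since 13 of the 20 were left when overlapping peaks were merged into 1. Of the 26 runs of overlapping peaks, 14 held a distal summit, against 2825 of the 6079 runs of all optimal peaks. A run can hold summits of more than 1 class.

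**Figure D1:**
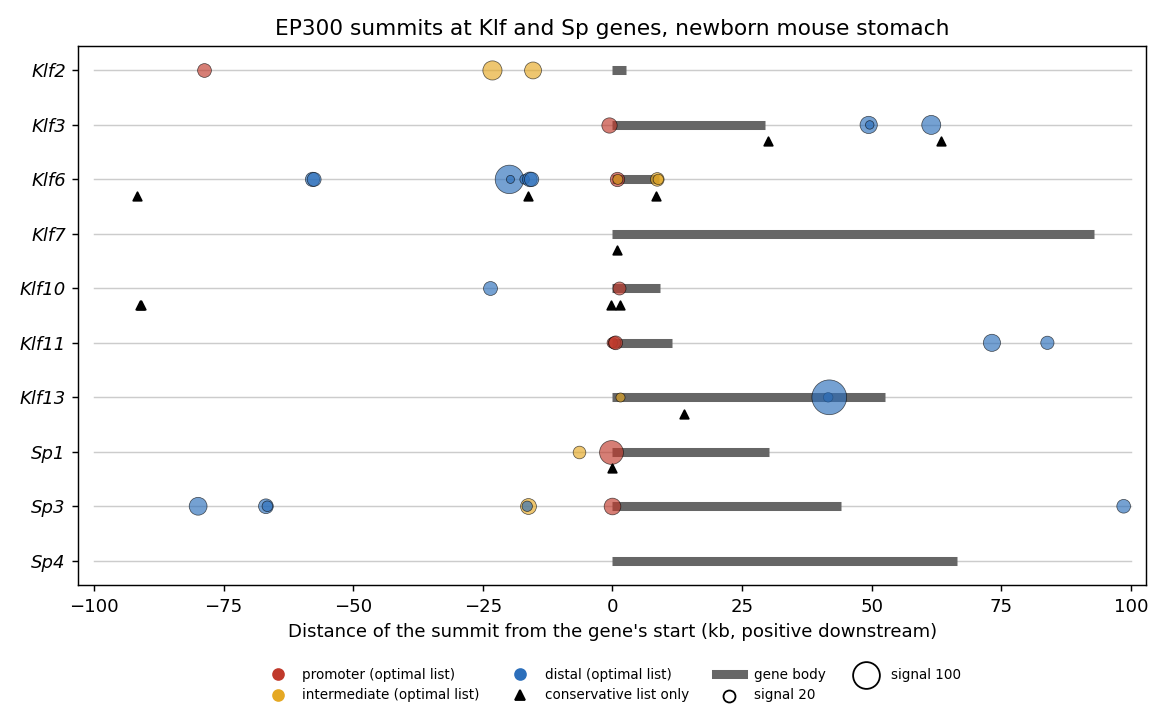
Position of each EP300 summit from the start of its gene (x axis, kb, positive in the direction of transcription), with 1 row for each of the 10 genes. Circle area is proportional to the pooled signal, colours give the distance class, triangles are summits of the conservative list alone, and grey bars are gene bodies. Klf6 has 11 circles, most of them upstream of the gene, and Klf7 and Sp4 have none.

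The base sequence at the strongest own-promoter summit of 5 of these genes shows what EP300 was found at next to the start. Each run is the plus strand of mm10, from 100 bases before the summit to 100 bases after it, taken from the RefSeq copy of the assembly and written 5′ to 3′. Capitals mark matches on either strand to 1 of 9 short motifs, and at Klf11 the 110 bases in a UTR exon were left out.
Sp1 promoter (chr15:102405771-102405971): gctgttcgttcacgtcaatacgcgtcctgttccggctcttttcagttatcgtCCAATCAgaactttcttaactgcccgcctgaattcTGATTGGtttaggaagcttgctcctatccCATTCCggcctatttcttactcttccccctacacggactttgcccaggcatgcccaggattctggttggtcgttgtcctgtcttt
Sp3 promoter (chr2:72980522-72980722): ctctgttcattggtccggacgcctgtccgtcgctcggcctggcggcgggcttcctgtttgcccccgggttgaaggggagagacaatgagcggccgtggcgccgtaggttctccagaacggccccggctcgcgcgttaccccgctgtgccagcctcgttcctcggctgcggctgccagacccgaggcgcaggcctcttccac
Klf3 promoter (chr5:64802684-64802884): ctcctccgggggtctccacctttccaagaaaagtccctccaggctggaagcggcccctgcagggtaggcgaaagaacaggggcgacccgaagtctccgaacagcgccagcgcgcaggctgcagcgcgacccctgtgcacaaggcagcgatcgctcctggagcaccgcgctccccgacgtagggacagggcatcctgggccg
Klf6 promoter (chr13:5862226-5862426): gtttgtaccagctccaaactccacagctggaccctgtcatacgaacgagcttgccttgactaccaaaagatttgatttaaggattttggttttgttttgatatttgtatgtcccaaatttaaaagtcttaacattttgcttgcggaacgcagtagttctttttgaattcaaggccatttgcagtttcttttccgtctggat
Klf11 promoter (chr12:24651805-24651895): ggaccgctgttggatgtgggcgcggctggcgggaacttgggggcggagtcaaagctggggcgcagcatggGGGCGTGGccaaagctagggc
The motifs searched were the GC box GGGCGGG, the CACCC box CCACNCCC, the ETS motif CCGGAAG, the CRE TGACGTCA, the AP-1 motif TGANTCA, the GRHL motif AACCNGTT, the TEAD motif GGAATG, the NF-Y motif CCAATCA and the CArG box. Matches to different motifs may overlap and each was counted, and a match is a description of the letters, not a measured site. The Sp1 window held a pair of NF-Y matches and a TEAD match. At least 2 NF-Y matches were present in 32 of the 2952 optimal promoter windows (1.08%), a feature of the Sp1 window that was singled out after it was seen. The Klf11 window held a CACCC box, with a second, unmarked match that runs across the end of the printed bases. The windows of Sp3, Klf3 and Klf6 held none of the 9 motifs. Over all 8 own-promoter summits, 3 had a GC box and 1 had a CACCC box, against 23.6% and 11.9% of all optimal promoter summits. The 3 include summits of Klf11 whose peaks overlap.

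Distal windows were printed for the 4 strongest distal peaks that held a GC box, a CACCC box or an AP-1 motif.
Klf13 distal (chr7:63896988-63897188): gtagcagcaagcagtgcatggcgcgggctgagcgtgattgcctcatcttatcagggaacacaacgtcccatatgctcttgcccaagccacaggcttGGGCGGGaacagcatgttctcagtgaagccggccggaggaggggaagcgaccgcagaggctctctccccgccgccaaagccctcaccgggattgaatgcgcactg
Klf6 distal (chr13:5841514-5841714): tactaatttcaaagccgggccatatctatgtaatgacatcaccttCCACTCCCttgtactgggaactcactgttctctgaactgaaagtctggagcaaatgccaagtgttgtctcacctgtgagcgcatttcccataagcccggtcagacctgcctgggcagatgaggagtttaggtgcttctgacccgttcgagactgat
Klf3 distal (chr5:64864787-64864987): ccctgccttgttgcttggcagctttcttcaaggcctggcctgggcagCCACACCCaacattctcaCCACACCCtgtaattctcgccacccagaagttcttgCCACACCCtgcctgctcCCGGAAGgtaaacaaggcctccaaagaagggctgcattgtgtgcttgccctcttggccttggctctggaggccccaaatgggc
Sp3 distal (chr2:73060260-73060460): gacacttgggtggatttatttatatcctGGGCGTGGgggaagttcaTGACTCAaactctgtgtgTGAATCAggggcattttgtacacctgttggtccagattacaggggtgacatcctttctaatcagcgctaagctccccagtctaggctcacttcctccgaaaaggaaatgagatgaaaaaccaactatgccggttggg
The Klf13 window held a GC box next to its summit, and the distal Klf6 window held a CACCC box. The distal Klf3 window held 3 CACCC boxes and an ETS match, and 3 or more CACCC boxes were present in 2 of the 3459 distal windows (0.0578%) and in 7 of all 7733. The distal Sp3 window held a pair of AP-1 matches beside a CACCC box, and 2 or more AP-1 matches were present in 66 distal windows (1.91%). Both repeats were singled out after they were seen.

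Klf6, the early response member, had the most summits, and all 11 had Klf6 as their nearest protein-coding start. The gene lies on chromosome 13, 5861482 to 5870394, plus strand. Its strongest peak lay 19868 bp upstream, outside coding genes (5841334 to 5841893), where replicate 1 gave a signal of 52.4, replicate 2 one of 59.9 and the list from the reads of both libraries (pooled) 113.0. Signal is the value of the authors' peak caller and has its own scale in each list, so ranks are given beside it. This peak ranked 163 in the optimal list, 194 in replicate 1 and 161 in replicate 2, so both libraries ranked it near the top. A further summit 199 bp from it had a pooled signal of 9.10, and its interval took in the same peak of each library.

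The other upstream Klf6 summits were weaker and less even between libraries. At 15940 bp upstream the signal was 30.03 pooled and 21.3 in replicate 1, and replicate 2 listed no peak with its summit inside. At 15598 bp the values were 28.9 pooled, 7.20 in replicate 1 and 19.4 in replicate 2. At 16927 bp the pooled signal was 13.004, with a peak at rank 19493 in replicate 2 and none in replicate 1. Of these 3 neighbouring summits, replicate 1 was thus stronger at the middle one and replicate 2 at the outer ones. Further out, the summit 57849 bp upstream had 28.6 pooled and 22.7 in replicate 2 with none in replicate 1, and that at 57536 bp had 27.1, 11.7 and 13.5. The AP-1 motif was present in the windows 57849, 16927 and 15598 bp upstream, and the GRHL and CRE motifs in none of the 11.

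Within the Klf6 gene, 2 summits lay in an intron and 2 in a UTR exon near the end of the gene. The summit 844 bp downstream of the start (5862046 to 5862605), which counts as its promoter summit, had 28.9 pooled, 9.94 in replicate 1 and 19.1 in replicate 2. The summit at 1043 bp had 13.9, 9.94 and 14.5. At the end of the gene, the summits 8657 and 8856 bp from the start had pooled signals of 25.8 and 15.0, and both took in the same library peaks of 12.6 and 16.3. Replicate 2 gave the higher rank to each of these 4. Of the 11 Klf6 summits, 3 were backed by a peak among the 7737 strongest of replicate 1 and 9 by one among the 7737 strongest of replicate 2. Counted in those strongest peaks alone, Klf6 had 4 summits in replicate 1 and 10 in replicate 2, so its high count rests largely on replicate 2.

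Klf3, the CtBP-recruiting repressor, had 1 promoter and 3 distal summits, all nearest to its own start and all in the conservative list. The gene lies on chromosome 5, 64803388 to 64832901, plus strand. Its promoter peak had its summit 604 bp from the start (64802504 to 64803063), with 32.7 pooled, 13.2 in replicate 1 and 19.9 in replicate 2. The distal summits all lay beyond the end of the gene. The strongest, 61499 bp downstream of the start (64864607 to 64865166), had 50.3 pooled and nearly the same signal in both libraries, 24.8 and 23.5, at ranks 1497 and 1476. This is the window with 3 CACCC boxes. The other pair, 49430 and 49631 bp downstream, had 41.5 and 10.1 pooled, over 1 peak of 10.1 in replicate 1 (rank 23498) and 1 of 26.3 in replicate 2 (rank 1074), so the libraries differed widely there.

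Klf2, the endothelial and lymphocyte member, had no promoter summit of its own and 3 summits upstream. The gene lies on chromosome 8, 72319033 to 72321656, plus strand. The strongest summit lay 23143 bp upstream (72295610 to 72296169), with 51.2 pooled, 29.0 in replicate 1 and 23.4 in replicate 2. That at 15310 bp upstream (72303443 to 72304002) had 39.9, 21.7 and 17.4. Both were in the conservative list and in the strongest peaks of both libraries, and both were nearest to the predicted gene Gm10282, at 9370 and 1537 bp. They are classed as intermediate for that reason. The remaining summit, 78857 bp upstream, lay 66 bp from the start of Ap1m1, a subunit of a clathrin adaptor, and had 26.5 pooled and 18.3 in replicate 1, with no peak in replicate 2.

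Klf13, a Sin3-recruiting repressor, held the strongest peak of the 10 genes, and it did not lie at the Klf13 promoter. The gene lies on chromosome 7, 63886351 to 63938915, minus strand. The peak lay in an intron 41827 bp downstream of the start (63896989 to 63897155), with 168.7 pooled, 86.9 in replicate 1 and 79.6 in replicate 2. It ranked 80 in the optimal list, 77 in replicate 1 and 94 in replicate 2, and was 167 bp wide where the other 36 were 560 bp. It is distal to every protein-coding start, the nearest being that of E030018B13Rik at 19769 bp, but its summit was 555 bp from the start of Gm27252, a non-coding transcript on the plus strand. A second summit 212 bp away had 12.8 pooled, over the same library peaks. The last Klf13 summit, 1438 bp downstream of the start, had 11.5 pooled, no peak in replicate 1 and 4.70 at rank 278336 in replicate 2, the lowest-ranked library support of the 37.

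Klf11 and Klf10, both early TGF-beta targets, had promoter summits of 15.2 to 26.5 pooled in the optimal list, where the median over all promoter summits was 32.1. The strongest pooled promoter peak of Klf10, at 39.1, is not in the optimal list. Klf11 lies on chromosome 12, 24651274 to 24662789, plus strand, and had 3 summits within 1 kb of its 3 coding starts. The first, 28 bp upstream of the gene's start, had 15.2 pooled and 16.5 in replicate 1, with no peak in replicate 2. Those at 410 and 631 bp downstream had 21.8 and 26.5 pooled and took in 1 peak in each library, of 7.69 in replicate 1 and 17.9 in replicate 2. Replicate 1 was thus stronger at the first start and replicate 2 at the following ones. The Klf11 distal summits, 73202 and 83900 bp downstream, had 40.9 and 24.6 pooled, were in the conservative list, and were nearest to Rrm2, the small subunit of ribonucleotide reductase, at 15447 and 26145 bp.

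Klf10 lies on chromosome 15, 38291463 to 38300706, minus strand. Its promoter summit, in an intron 266 bp from an internal start, had 23.6 pooled, 12.5 in replicate 1 and 10.7 in replicate 2. Its distal summit, 23708 bp upstream within the non-coding Gm35248, had 27.1, 7.75 and 12.6. Neither was in the conservative list, nor among the strongest 7737 peaks of either library. Klf10 was the only one of the 8 genes with no conservative-list support for any of its optimal summits.

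Sp1 had the strongest promoter peak of the 10 genes. It lies on chromosome 15, 102406143 to 102436404, plus strand, and the summit was 272 bp upstream of its start, outside the gene (peak 102405591 to 102406150). The signal was 79.2 pooled, 34.8 in replicate 1 and 42.2 in replicate 2, at ranks 324 in the optimal list, 542 and 307. In the pooled list 98.5% of protein-coding genes had a weaker promoter peak or none. The other Sp1 summit, 6410 bp upstream, had 22.3, 14.0 and 10.1 and was not in the conservative list. Sp1 had no distal summit in its region, in which 9 protein-coding genes start, Sp1 included.

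Sp3 had 7 summits, of which 5 were distal and 6 lay upstream. The gene lies on chromosome 2, 72936427 to 72980446, minus strand. Its promoter summit was 176 bp upstream (72980342 to 72980901), within the antisense transcript Sp3os and an intron of the predicted gene Gm11084, with 38.9 pooled, 26.7 in replicate 1 and 17.5 in replicate 2. The strongest Sp3 summit lay 79914 bp upstream (73060080 to 73060639), with 44.5, 20.3 and 22.2, and this is the window with paired AP-1 matches. Both were in the conservative list and in the strongest peaks of both libraries. The pair at 16211 and 16433 bp upstream had 35.1 and 15.0 pooled over the same library peaks of 15.98 and 16.9. The pair at 66839 and 66554 bp had 30.3 and 15.8 pooled, with 15.2 in each library for the former, and 9.63 in replicate 1 and none in replicate 2 for the latter. These 5 upstream summits were nearest to Gm11084 rather than to Sp3. The summit 98616 bp downstream lay just inside the region's edge, with 26.2, 18.8 and 9.21.

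Klf7 and Sp4 had no optimal summit, and their promoters differed in the other lists. At Klf7 (chromosome 1, 64029447 to 64122282, minus strand) the strongest pooled promoter peak was 113 bp from a start, with 21.8 pooled, 15.2 in replicate 1 and 12.4 in replicate 2, and it was in the conservative list. At Sp4 (chromosome 12, 118234933 to 118301440, minus strand) it was 546 bp from a start, with 10.1 pooled, and the strongest promoter peaks of replicates 1 and 2 had 12.6 and 5.36. The Sp4 region held no summit of the conservative list and none of the 7737 strongest pooled, replicate 1 or replicate 2 peaks. A peak 73 bp from the Klf2 start had 18.3 at rank 3702 in replicate 1, while the pooled and replicate 2 lists held none within 1 kb.

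Ordered by the strongest pooled promoter peak, the genes ran from Sp1 (79.2) through Klf10 (39.1), Sp3 (38.9), Klf3 (32.7), Klf13 (30.5), Klf6 (28.9), Klf11 (26.5) and Klf7 (21.8) to Sp4 (10.1), with Klf2 unlisted. Sp1 came first in each library as well. The order of the others did not hold between libraries. In replicate 1 Sp3 (26.7), Klf10 (26.6) and Klf13 (22.2) followed Sp1, and Klf6 was last at 9.94. In replicate 2 Klf3 (19.9), Klf6 (19.1) and Klf11 (17.9) followed Sp1, and Klf10 and Klf13 stood at 10.7 and 10.6. Sp4 was last of the listed genes in the pooled and replicate 2 lists, and in replicate 1 only Klf6 was lower. From Klf10 to Klf11, each gene and its neighbour in the pooled order stood the other way round in at least 1 library, so these neighbours do not differ beyond the spread between libraries. Klf11 was above Klf7 in both. The median over the 10 genes, with an unlisted promoter taken as 0, was 29.7 pooled, 17.6 in replicate 1 and 14.9 in replicate 2. Over all protein-coding genes, taken likewise, the upper quartile was 14.7, 9.57 and 8.19. Only 10232 of the 21911 genes had a listed promoter peak in the pooled list, so the rest count as 0 there. Among those 10232 genes, 21.6% had a weaker pooled promoter peak than Sp4 and 96.8% a weaker one than Sp1.

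**Figure D2:**
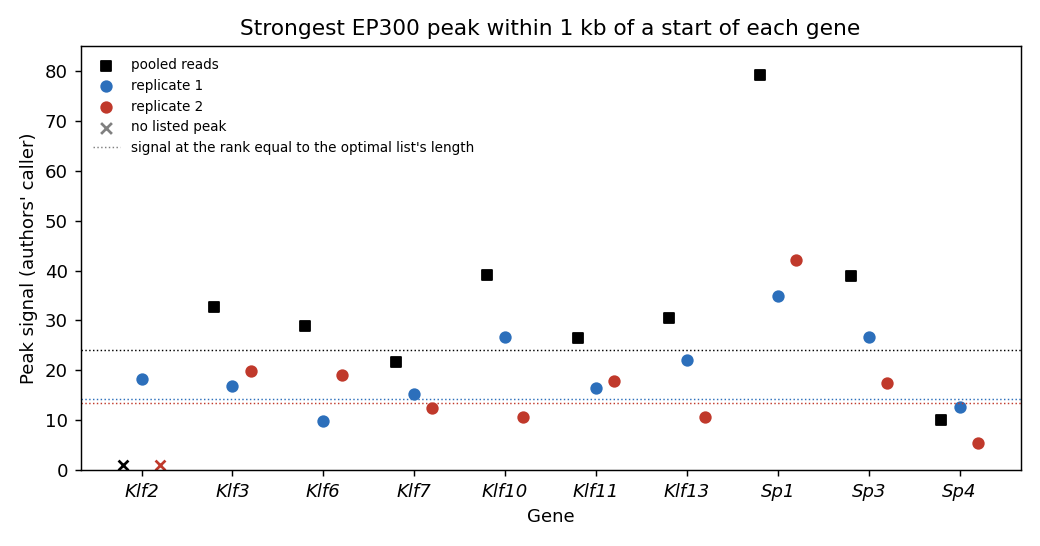
Signal of the strongest EP300 peak within 1 kb of a coding start of each gene (y axis, signal of the authors' caller, on a separate scale in each list), in the pooled reads (squares) and in each library (circles). Crosses at the bottom stand for no listed peak, and dotted lines give the signal at rank 7737 of each list. Sp1 is highest in all 3 lists, and Klf10 and Klf13 are above the line in replicate 1 and below it in replicate 2.

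The share of the 37 summits with conservative-list support was close to that of all optimal peaks, and replicate 1 backed fewer of them than replicate 2. The conservative list held the same peak for 22 of the 37 (59.5%, exact Clopper-Pearson 95% interval 42.1 to 75.2), against 61.3% of all optimal peaks. These intervals cover counting error only, and summits of a gene are not independent. A peak among the 7737 strongest of replicate 1 backed 19 of the 37, against 61.4% of all optimal peaks, and one of replicate 2 backed 26, against 66% of all. Neighbouring summits that took in the same library peak were each counted as backed, here and over all optimal peaks. The counts are therefore not counts of separate library peaks. Both libraries backed 14 (37.8%, against 42.8% of all), and neither backed 6 (16.2%, against 15.5% of all). By class, 14 of the 20 distal and 4 of the 9 promoter summits were in the conservative list, against 59.3% and 65.5% over all optimal peaks. The median pooled signal was 27.1 (quartiles 15.8 and 38.9) against 30.2 over all. Of the 37, 14 lay within 250 bp of another summit, as did 28.5% of all.

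**Figure D3:**
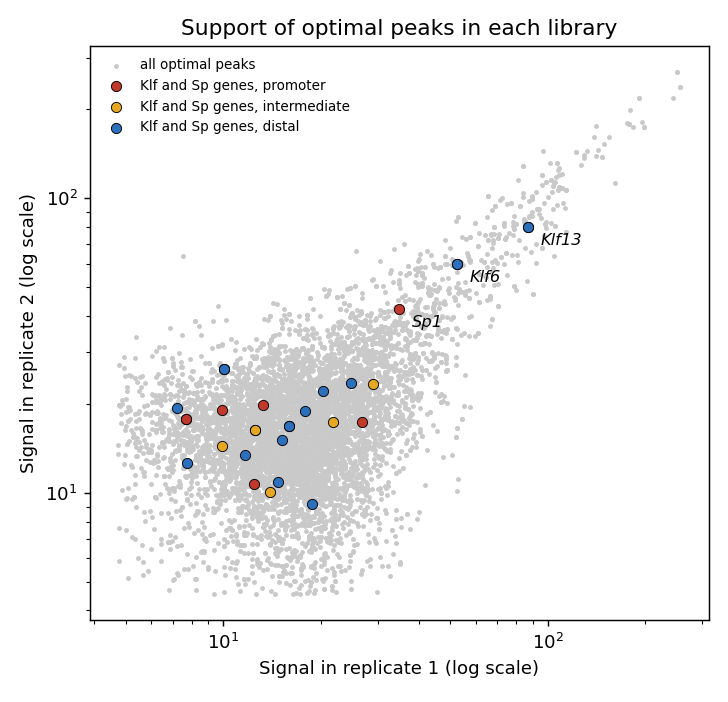
Signal of the strongest peak inside each optimal peak in replicate 1 (x axis) and replicate 2 (y axis), both on log scales, for the 30 summits at the 10 genes with a peak in both libraries (coloured by class) and all 6865 such optimal peaks (grey). The peaks of Klf13, Klf6 and Sp1 lie at the upper right, apart from the remaining summits at the 10 genes. All lie within the range of the grey points.

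The conservative list changed which genes had a promoter summit. It held 34 summits at the 10 genes, of which 12 were not in the optimal list, and 32.03% of the whole conservative list was likewise not in the optimal list. How the 2 sets were thresholded is not given in the sources used here, so whether they are named as intended is not known, and support by the conservative list means only that both sets hold the peak. At Klf10 it held summits 196 bp upstream of the start (26.5 pooled, 26.6 in replicate 1, 10.5 in replicate 2) and 158 bp from an internal start (39.1, 26.4 and 10.4), and a pair at 90901 and 91101 bp upstream with 40.3 and 11.4 pooled. The stronger Klf10 promoter peak is thus in the conservative and not in the optimal list. At Klf13 it held a summit 161 bp from an internal start, with 30.5, 17.5 and 10.3. At Sp1 a second promoter summit, 46 bp upstream, had 19.8 pooled. Klf6 lost its promoter summit and gained 1 at 91763 bp upstream (36.1, 19.6 and 14.1), among 3 summits. Taking either IDR list, 8 of the 10 genes had an own-promoter summit, all but Klf2 and Sp4, against 13.4% of all protein-coding genes.

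**Figure D4:**
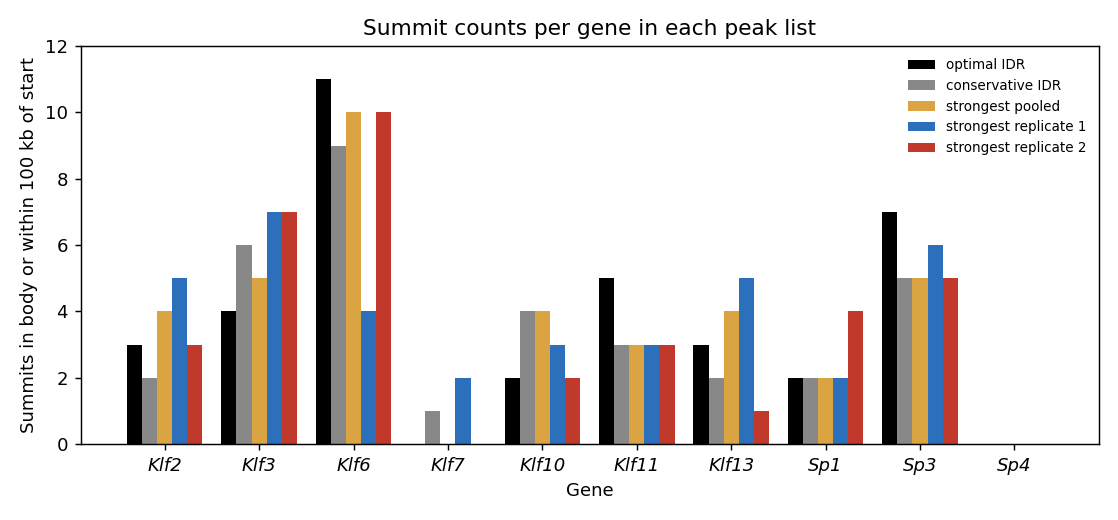
Number of EP300 summits in the body or within 100 kb of the start of each gene (y axis) in the 2 IDR lists and among the 7737 strongest peaks of the pooled, replicate 1 and replicate 2 lists (bars). Klf6 falls from 11 in the optimal list to 4 in replicate 1, and Sp4 is at 0 in all 5 lists.

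The elements this family binds were found at some of the summits of its own genes, and the share stands beside that of all optimal summits without a test. Its interval covers counting error only, and summits of a gene are not independent. A GC box or a CACCC box was within 100 bp of 10 of the 37 summits (27.0%, exact interval 13.8 to 44.1), against 21.2% of all optimal summits. At promoter summits the counts were 4 of 9 against 945 of 2952, and at distal summits 4 of 20 against 12.8%. The 4 promoter summits were the 3 of Klf11, whose peaks overlap, and that of Klf10, and the 9 include the Ap1m1 promoter. Counted by runs of overlapping peaks, 8 of 26 runs held a box, against 25.3% of all runs. GC boxes lay, among others, at the Klf11 summits at the start and 410 bp downstream, at the Klf13 summit 1438 bp downstream and at the Sp1 summit 6410 bp upstream. AP-1 matches were at 4 of the 20 distal summits, namely 3 at Klf6 and 1 at Sp3, against 18.9% of all distal summits. None was at the 9 promoter summits, against 4.61% of all promoter summits. Nor was any at the 8 summits between 1 and 10 kb from a start, against 14.4% of all such summits. NF-Y matches were at 2 of the 9 promoter summits, of Sp1 and Klf11, against 6.88% of all promoter summits and 3.94% of all optimal summits. TEAD matches were at 4 of the 37 summits, 2 of Klf6 and 2 of Sp1, against 14.2% of all optimal summits. ETS matches were at 2 summits (6.00% of all), and GRHL and CArG matches at 1 each (4.85% and 1.77%). The CRE was at none of the 37, against 0.815% of all.

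Among the other 16 genes of the family, 10 had a summit in their region (62.5%, against 49.9% of all protein-coding genes) and 4 at their own promoter (25%, against 11.1%), these being Klf5, Klf9, Klf15 and Sp2. Sp2 had the strongest promoter peak of the whole family, with 168.5 pooled, 71.1 in replicate 1 and 98.3 in replicate 2. Klf9, a glucocorticoid-responsive member, had 57.5, 37.7 and 28.8 at its promoter, and Klf5, a factor of gut epithelium, had 48.7, 17.9 and 29.6. The most summits were at Klf1 (9), the erythroid member, none of which was distal or at its promoter, followed by Klf5 (6) and Klf9 (5), with 4 each at Klf16, Sp2 and Sp6. Sp7, a bone factor, shares its strongest summit with Sp1, whose promoter it is. Sp6 likewise shares its strongest summit, 35592 bp from its start, with Sp2, so the counts of these 2 genes are not separate. Of 15 cofactors and partners of the family, 9 had a summit (60%) and 6 had one at their promoter (40%), with 5 summits each at Ctbp2 and Sin3a, the co-repressors of Klf3 and of Klf10, Klf11 and Klf13, and 4 each at Hdac1 and at Ep300 itself. Hdac3 had the most with 7, none at its promoter. All 8 genes listed as known to respond to these factors had a summit in their region, 2 of them at the promoter (25%), led by Cdkn1a with 9, of which the strongest was nearest to Stk38, and followed by Nos3 with 3, Smad7 with 3 and Tagln with 2. At many of these genes the strongest summit was nearest to a neighbour, so a summit in the region is not a summit of the gene.

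Markers of the tissue were counted in the same way. A summit in the region was found for 4 of 4 smooth muscle, 3 of 4 squamous and 5 of 7 glandular epithelial markers, and for 1 of 3 markers of stomach mesenchyme. It was found for 1 of 4 endothelial, 2 of 4 blood, 1 of 4 liver and 2 of 4 neuronal markers. Atp4b, Muc5ac, Krt5, Foxf1 and Nkx2-5 had none. These counts stand against 49.9% of all protein-coding genes, and neighbouring markers share summits (Gkn1 with Gkn2, Tff1 with Tff2, Krt13 with Krt15). Being the nearest protein-coding gene of an optimal summit was less common, at 19.3% of all protein-coding genes. It held for 3 of 4 smooth muscle and 1 of 3 stomach mesenchyme markers. It also held for 1 of 4 squamous, 1 of 4 endothelial and 1 of 4 neuronal markers. None of the 7 glandular, 4 blood and 4 liver markers was such a gene. In whole tissue, which cells of the stomach carried the EP300 peaks at these genes was not tested.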

How the data were processed

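EP300 was mapped in 2 libraries of newborn mouse stomach (1 group). Deposited were 5 peak lists in narrowPeak layout, on mm10 per the labels: 1 for each replicate, 1 from both alignments together (pooled), and an optimal and a conservative set thresholded by IDR. Column 7 of each deposited list is the signal value of the authors' caller, and column 5 of the IDR sets is a score, scaled to 1000 at most. The authors also deposited the offset of the summit from the peak start, another unit, in bp. Which caller and aligner made them is not given in the sources used here, nor which control went with which list. Files hold no counts, so depth is unknown and no precision from depth is given.

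Summits were column 2 plus column 10, written 1-based. Peaks off the named chromosomes (4 of 7737 optimal peaks) were left out. Of 21911 protein-coding symbols in GENCODE M21, regions were the body plus 100 kb around the start, promoters within 1 kb of a coding transcript start, and distal summits over 10 kb from any. Conservative support meant the same interval and summit. Library support was the strongest peak of a library's list with its summit inside the optimal peak. Motifs were searched within 100 bp of the summit on both strands. Intervals are exact 95% binomial. Python 3.11.15, pandas 2.3.3, numpy 2.4.6 and scipy 1.17.1 were used, and the counting code was tested on simulated positions. The genes named are all 10 members, the 4 leading genes of each list with ties, and neighbours of summits described. The members, lists and motifs were chosen with earlier results of these data known. Alternatives were other peak lists, windows, distances and assignments. One promoter sequence is not reported here.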

Additional observations from a re-analysis of the deposited data

How the results depend on the processing

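Of 47 alternative values, 39 kept within 1.5 times of the reported count or median, or within the interval of the reported share. In the stronger part of the optimal list the 10 genes held 13 summits, 7 of them distal, and 3 genes had an own-promoter summit (Klf3, Sp1 and Sp3). The distal count of 20 became 13 with overlapping peaks merged, 11 within 50 kb, 12 with each summit given to its nearest start alone, and 11 with distal set at over 20 kb. Giving each summit to its nearest start alone left the members 25 summits, 12 of them distal. With predicted genes (names with a Gm number or Rik) also left out of the starts, they had 34 summits and 21 distal ones. Leaving predicted genes out was an alternative chosen after seeing the data. The share with a GC box or CACCC box was 13.5% within 50 bp of the summit, against 11.5% of all optimal summits. Without 1 replicate (strongest peaks of the other alone) the 10 genes held 35 to 37 summits, 16 to 18 of them distal, 8 to 9 genes had a summit and 5 to 8 an own-promoter summit. Among the strongest 7737 peaks of 1 library, counts moved by over 1.5 times at Klf6 (from 11 to 4 in replicate 1), Klf2 (from 3 to 5 in replicate 1), Klf13 (from 3 to 5 in replicate 1 and 1 in replicate 2), Klf3 (from 4 to 7 in each), Klf11 (from 5 to 3 in each), Sp1 (from 2 to 4 in replicate 2) and Klf7 (from 0 to 2 in replicate 1). With nearest starts alone Klf2 had 0 summits, Sp3 2, Klf11 3 and Klf13 1, and Klf13 lost its strongest peak. Within 50 kb Sp3 had 3 and Klf11 3, and with overlapping peaks merged Klf6 had 6 and Klf11 3. The cause of these changes was not tested. No paired analysis was possible because there is 1 group. Depth is unknown, so its effect on weak peaks cannot be given.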

Other observations

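No 2 summits of the optimal list lay closer than 199 bp, and at the 10 genes several summits stood at or just past that spacing from a stronger one. Examples were 199 bp apart at 3 places of Klf6, 212 bp at Klf13, 221 bp at Klf11 and 222 bp at Sp3. At Klf6 the stronger member of the pair 19868 bp upstream had 113.0 and the weaker 9.10, and at Klf13 the values were 168.7 and 12.8. The weaker one was also in the conservative list at Klf6 and not at Klf13.

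Of the 37 windows at the 10 genes, none lay mostly in sequence that the assembly marks as repeats, against 1.95% of all optimal windows. The median GC content was 68.2% at the 9 promoter summits in the regions of the 10 genes and 59.7% at all optimal promoter summits. The 9 include the Ap1m1 promoter and 3 summits of Klf11 in overlapping peaks. At distal summits the median was 46.3% in both.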
